A study of Mus musculus with 24 samples.

Results

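The genes described here are 10 members of the imprinted cluster on distal mouse chromosome 7: H19 and Igf2 of one domain, and Ascl2, Cd81, Tssc4, Kcnq1, Kcnq1ot1, Cdkn1c, Slc22a18 and Phlda2 of the neighbouring one. They were chosen by name, through the match of the table's Ensembl identifiers to these symbols in GENCODE M21, and all 10 were among the 48985 gene identifiers of the table. They were measured by RNA-seq in F121/9 mouse embryonic stem (ES) cells, a female F1 hybrid line with one 129/Sv and one CAST/EiJ genome, grown in 2i medium with LIF on gelatin. The 24 libraries were 12 groups of 2 replicates, described by the submitters as biological duplicates. The recombinations are named d3, d6, i7, i10 and i12, each with 1 parental line, and there were 7 recombined clones, numbered 12 and 21 (d3), 16 (d6), 7 and 12 (i7), 18 (i10) and 10 (i12). Each clone is a single line, the parental lines share the hybrid background, and what each recombination changed is not given beyond these names. The labels do not state which strain was the mother, so no allele is called maternal or paternal here. The submitters' title places the study in work on contacts between the genome and the nuclear lamina, and the comparisons asked whether each clone differed from its parental line.

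Imprinted genes are read mainly from the copy inherited from one parent, and the choice is set by DNA methylation laid down in the germ line. In the H19 and Igf2 domain, a control region methylated on the paternal copy binds the insulator protein CTCF on the maternal copy, where H19, a long noncoding RNA, is made. Igf2, a growth factor, is made from the paternal copy. In the other domain the control region is the promoter of Kcnq1ot1, a long antisense RNA made from the paternal copy inside the potassium channel gene Kcnq1, and its transcription silences neighbours in cis. These include Cdkn1c, a cyclin-dependent kinase inhibitor, Phlda2, which restrains placental growth, Slc22a18, a membrane transporter, and Ascl2, a trophoblast transcription factor. Cd81, a tetraspanin of the cell surface, and Tssc4, a protein of splicing complex assembly, lie in the same domain and are known for imprinted expression mainly in placenta. Imprints are known to be lost readily in cultured ES cells, and methylation was not measured here.

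The 10 genes span 927.6 kb of GRCm38 chromosome 7, from 142575529 to 143503150. H19 (142575529 to 142578143, minus strand) is annotated as a long intergenic noncoding RNA, and its gene body also holds a microRNA precursor, Mir675. The 2 mature microRNAs of that precursor are shown because they are the small products that H19 transcription carries. Capitals mark the seed, bases 2 to 8. The libraries were poly(A) RNA, so mature microRNAs were not measured.
miR-675-5p: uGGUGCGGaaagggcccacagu
miR-675-3p: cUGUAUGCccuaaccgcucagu
Igf2 (142650766 to 142666816, minus strand) lies 72.6 kb from H19 and overlaps the antisense gene Igf2os. On its own strand it overlaps Mir483 and the protein-coding gene Gm49394. How reads shared by overlapping genes were counted is not given, so Igf2 counts may leave some out. Ascl2 is at 142966829 to 142969264 on the minus strand, Cd81 at 143052739 to 143067934 on the plus strand and Tssc4 at 143069249 to 143071093 on the plus strand. Kcnq1 (143106362 to 143427042, plus strand) contains all of Kcnq1ot1 (143203458 to 143296549, minus strand). Cdkn1c is at 143458339 to 143461050 (minus), Slc22a18 at 143473736 to 143499334 (plus) and Phlda2 at 143501545 to 143503150 (minus).

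RefSeq promoter windows of 300 bases on GRCm38.p6 (250 before and 50 after a start) were at hand for 7 of the 10 genes. H19, Cdkn1c and Kcnq1 are named only. The windows of Kcnq1ot1, Cd81 and Tssc4 are shown because the allele counts below turn on these 3 genes, and Kcnq1ot1's window lies in the control region of the domain. Capitals mark CG dinucleotides, the bases at which mammalian DNA is methylated.
Kcnq1ot1 (chr7:143296498-143296797, minus strand): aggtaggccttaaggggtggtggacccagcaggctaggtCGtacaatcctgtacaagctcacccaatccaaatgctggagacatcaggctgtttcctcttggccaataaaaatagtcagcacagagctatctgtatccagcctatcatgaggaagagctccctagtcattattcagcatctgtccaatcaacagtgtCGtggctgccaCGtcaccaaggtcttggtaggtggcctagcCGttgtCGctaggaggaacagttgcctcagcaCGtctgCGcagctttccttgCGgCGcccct
Cd81 (chr7:143052500-143052799, plus strand): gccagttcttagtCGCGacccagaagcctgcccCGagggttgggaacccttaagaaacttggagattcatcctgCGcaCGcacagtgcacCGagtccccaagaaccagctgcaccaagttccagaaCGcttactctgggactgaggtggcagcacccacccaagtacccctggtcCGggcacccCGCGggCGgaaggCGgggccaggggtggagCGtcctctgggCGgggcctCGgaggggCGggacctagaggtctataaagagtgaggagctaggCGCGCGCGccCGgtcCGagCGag
Tssc4 (chr7:143069118-143069417, plus strand): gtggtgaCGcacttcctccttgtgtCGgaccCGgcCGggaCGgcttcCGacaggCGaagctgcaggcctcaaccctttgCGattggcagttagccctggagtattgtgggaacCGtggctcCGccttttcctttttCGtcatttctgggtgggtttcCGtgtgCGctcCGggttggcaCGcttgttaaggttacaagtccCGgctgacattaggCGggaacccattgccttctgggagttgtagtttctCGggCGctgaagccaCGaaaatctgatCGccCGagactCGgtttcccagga
The Kcnq1ot1 window held 9 CG dinucleotides, a number reached by 45.8% of the 32851 windows of this length, whose median was 7.0. The Cd81 and Tssc4 windows held 23 each, reached by 21.5% of windows. The Kcnq1ot1 window held 3 copies of CCAAT, counted on both strands. Tssc4 held 1 and Cd81 held none, and 37.4% of all windows held at least 1. Such matches describe letters only.

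Total counts per library, the sum of both allele columns, ran from 3286819 to 15581094, lowest in the i10 and i12 lines. Markers of ES cells summed to 6046 to 8540 CPM, counts scaled to the normalised library size, in every library, against 50.3 to 153.5 CPM for 7 trophoblast markers, 6.99 to 28.8 for 7 primitive endoderm markers, 3.93 to 25.7 for 7 fibroblast feeder markers and 40.3 to 265.6 for 6 primed epiblast and mesendoderm markers. Some of these were detected throughout, such as Thy1 (3.32 to 24.5 CPM) and Col4a1 (2.65 to 20.5), while Dcn was at 0 in all 24 libraries. Because the libraries are bulk RNA, fewer cells making a transcript and less of it per cell cannot be told apart. The allele columns were checked on chromosome 14 in d3 clone 21. There the median 129S1 share of 361 genes was 0.4% and 0.5% in its 2 replicates, while the other libraries had 49.2% to 54.9%. Assignment to 129S1 can thus be nearly absent in these columns. That the 129S1 copy is missing there is read from the same columns. CAST and chromosome 7 were not checked in this way.

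Within the cluster, only Cd81 and Tssc4 were abundant. The median over libraries of CPM per kilobase of exon was 34.4 for Cd81 (range 23.2 to 62.6) and 14.5 for Tssc4 (8.76 to 21.7). These ranges did not overlap each other. On the same scale H19 had a median of 0.394 (0 to 6.83), Ascl2 of 0.288 (0 to 1.46), Phlda2 of 0.142 (0 to 0.425) and Igf2 of 0.0935 (0 to 0.330). The ranges of these 4 genes overlapped, so their order is not set by these data. Kcnq1ot1, whose annotated transcript is a single exon of 93092 bases, had 0.0431 (0.0179 to 0.195) on this scale, although its 7 to 90 counts per library made it the third most counted by median. Slc22a18 had 0.0492 (0 to 0.694), and the medians of Kcnq1 and Cdkn1c were 0, with ranges up to 0.222 and 0.125.

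H19 varied widely between replicates, and both alleles contributed. Among d3 lines, H19 had 117 counts in replicate 1 and 12 in replicate 2 of the parent, 254 and 11 in clone 12, and 91 and 4 in clone 21. Among d6 lines it had 55 and 9 in the parent and 45 and 5 in clone 16. In every one of these 5 groups replicate 1 was the higher library, by 4.04 to 21.9 times in CPM. In i7 the H19 counts were 5 and 5 in the parental line, 4 and 11 in clone 7, and 13 and 25 in clone 12. In i12 they were 4 and 3 in the parental line and 26 and 1 in clone 10, and in i10 they were 13 and 1 in the parental line and 2 and 0 in clone 18. Replicate 1 was thus the higher in CPM in 10 of 12 groups, the exceptions being i7 clones 7 and 12.

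The level of H19 therefore ranged from 0 to 16.8 CPM over libraries, with group means such as 8.90 ± 11.2 CPM in d3 clone 12 and 5.45 ± 5.97 CPM in the d3 parental line (SD, n = 2). The SD exceeded the mean in both groups. Other gene lists moved with the replicate number as well. Summed markers of primed epiblast and mesendoderm, mostly the de novo methyltransferase Dnmt3b, were 67.7 to 265.6 CPM in replicate 1 and 40.3 to 158 CPM in replicate 2, higher in replicate 1 in 11 of 12 groups. In that list T stood at 3.32 to 47.8 CPM, Otx2 and Mixl1 did not pass 2.21 CPM, Fgf5 was at 0 in 18 libraries and Foxa2 in 22. Summed regulators of imprinting were higher in replicate 1 in 11 of 12 groups, and the summed distal chromosome 7 neighbours in 0 of 12. The part of these in the H19 difference was not tested.

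**Figure D1:**
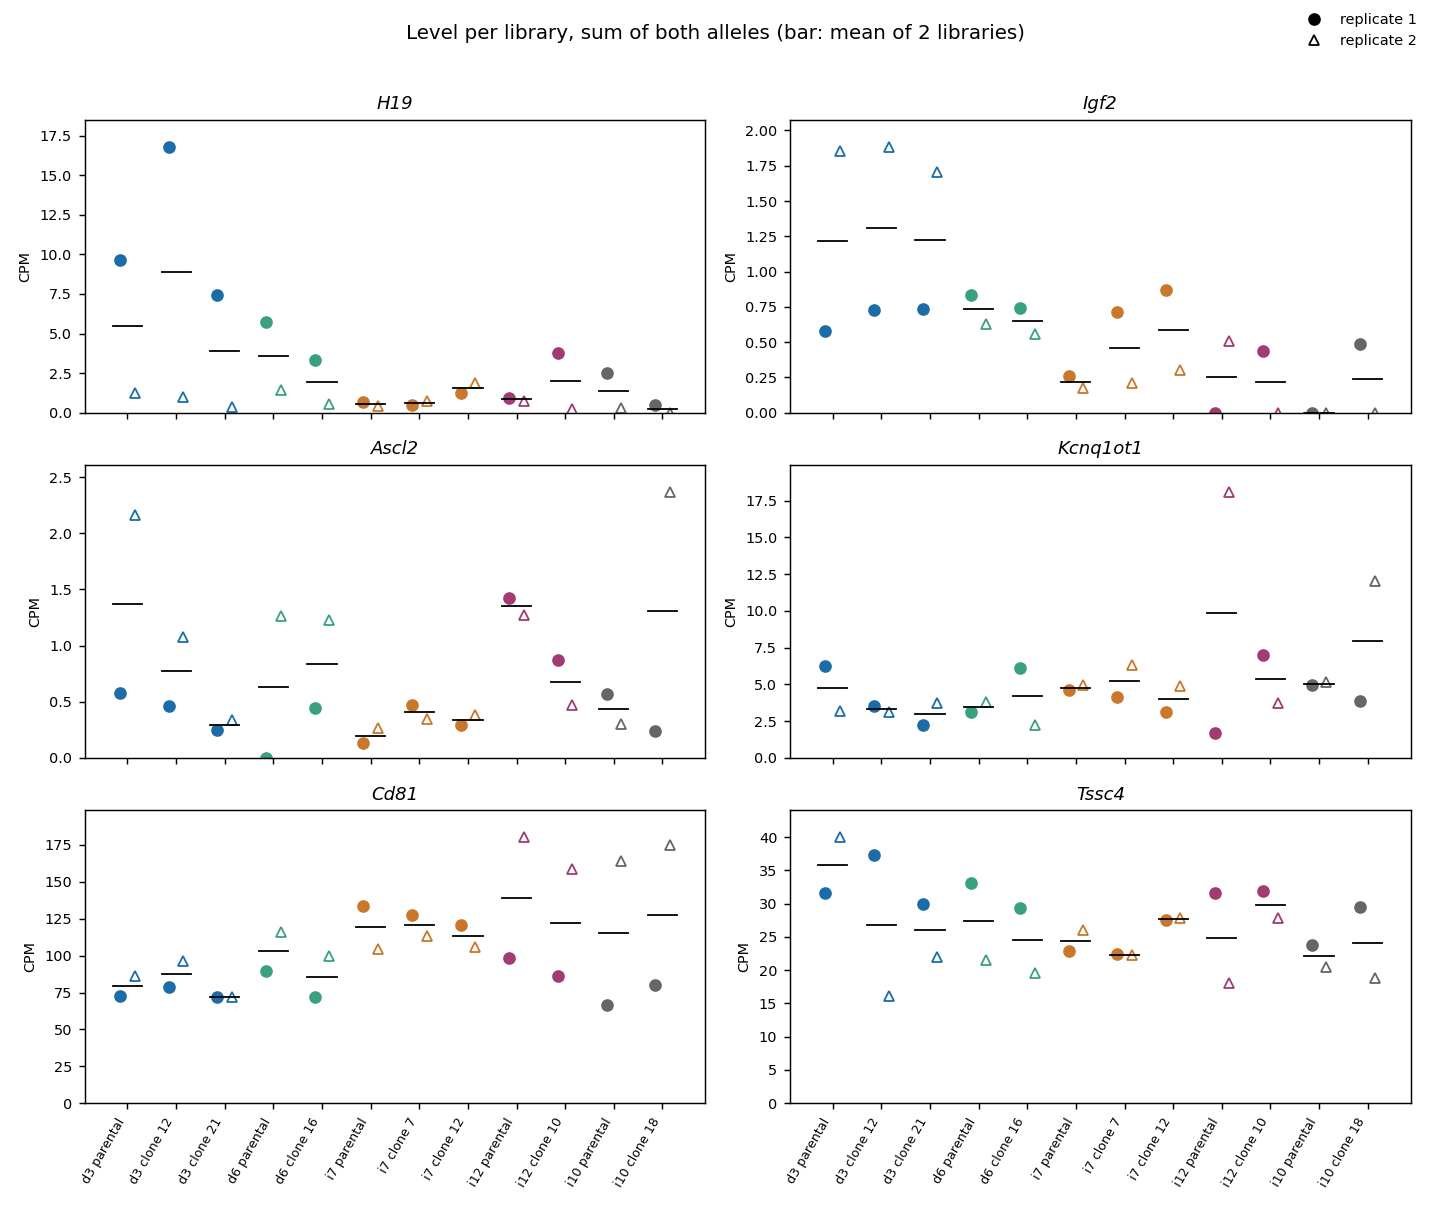
Level of 6 genes in each of the 24 libraries, in CPM of both alleles together. Filled circles are replicate 1, open triangles replicate 2, bars the mean of the 2 libraries, and colours the recombination. H19 is higher in replicate 1 than in replicate 2 of every d3 and d6 group, Igf2 is highest in replicate 2 of the 3 d3 groups, and Cd81 in replicate 2 of the i12 and i10 groups.

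H19 reads came from both alleles. Over all libraries 359 counts were assigned to 129S1 and 357 to CAST, a 129S1 share of 50.1% (95% Wilson interval 46.5 to 53.8%). This pooled share rests mostly on replicate 1 of the d3 groups (117, 254 and 91 counts) and leaves out the spread between libraries. Of the 23 libraries with an H19 count, 18 had counts from both alleles, and in 20 the interval included 50%. An interval from 3 counts or fewer cannot exclude 50%. The best counted library, d3 clone 12 replicate 1, had 130 counts from 129S1 and 124 from CAST, a share of 51.2% (45.1 to 57.3%). The share was 62.4% (53.4 to 70.6%) in replicate 1 of the d3 parental line, from 117 counts, and 32.7% (21.8 to 45.9%) in replicate 1 of the d6 parental line, from 55 counts. These 2 intervals lie on opposite sides of 50% and do not overlap. The d6 parental replicate 2 had 33.3%, close to its partner, whereas the d3 parental replicate 2 had 41.7% from 12 counts. A test of whether the H19 ratio differed among the 5 parental lines did not call the difference. Its adjusted p was 0.395 (edgeR quasi-likelihood test, Benjamini-Hochberg adjustment over 12774 genes). H19 reached the mean of 20 counts needed for this test only through its d3 libraries. The i7, i12 and i10 parental lines held 10, 7 and 14 H19 counts in all, so the test says little about them.

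**Figure D2:**
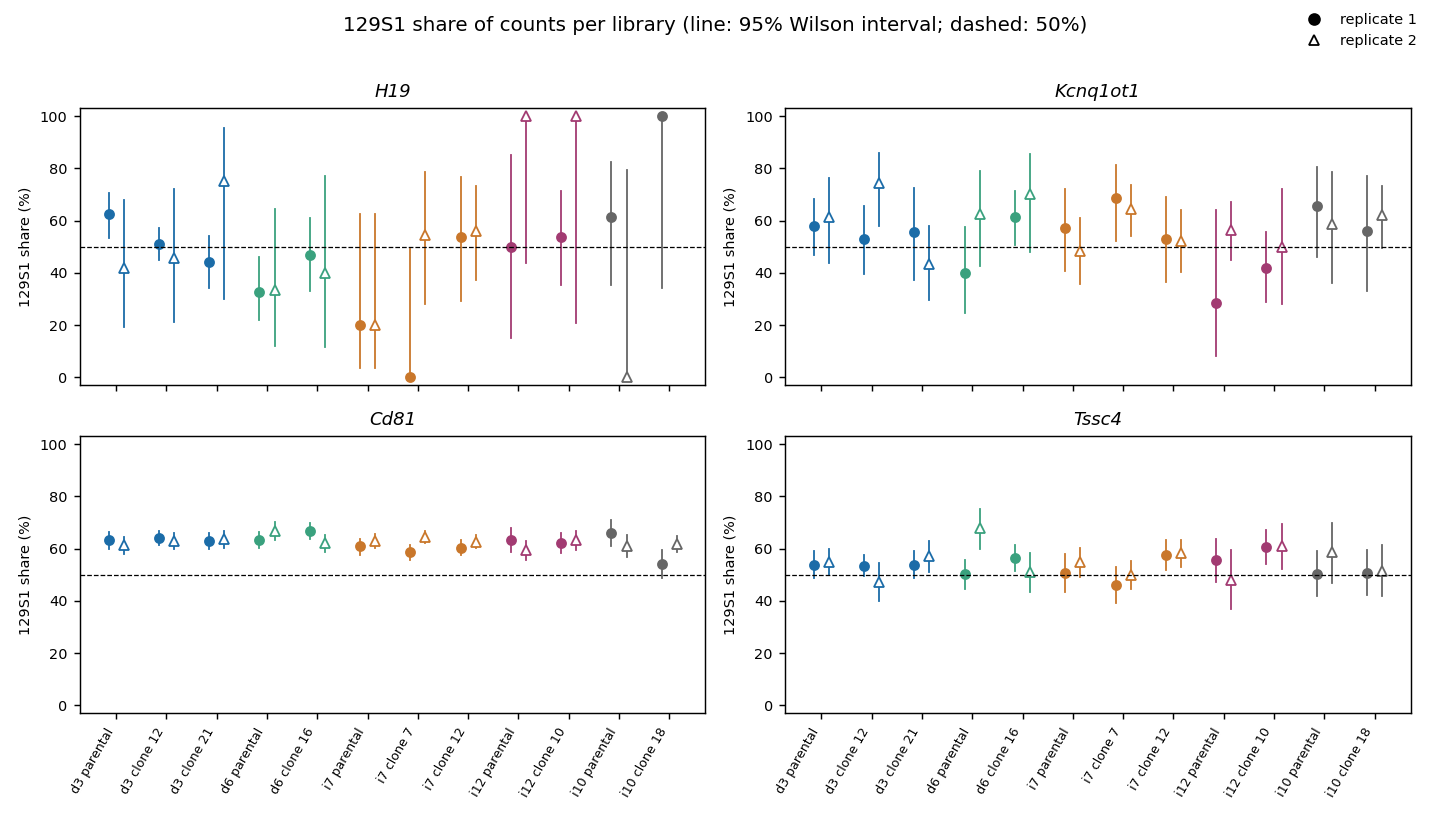
Share of counts assigned to the 129S1 allele in each library, in percent, for the 4 genes that passed the filter of the ratio test, H19 through its d3 libraries. Vertical lines are 95% Wilson intervals, which cover counting error only, filled circles replicate 1, open triangles replicate 2, and the dashed line is 50%. Cd81 lies above 50% in 24 of 24 libraries, while H19 and Kcnq1ot1 scatter on both sides with wide intervals.

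Igf2, the partner of H19, was scarce and leaned to the 129S1 allele. It had 0 to 21 counts per library with a median of 4, and 11 libraries held 3 counts or fewer. The 4 highest counts were all in d3, which held 7 and 18 in its parent, 11 and 21 in clone 12, and 9 and 20 in clone 21. Outside d3 the most was 10, in replicate 1 of d6 clone 16. In CPM the 3 d3 libraries of replicate 2 stood at 1.70 to 1.89 and the 3 of replicate 1 at 0.579 to 0.737, without overlap. That is the opposite order to H19, which was higher in replicate 1 of the same groups. Outside d3 this was not general. In d6, Igf2 was higher in replicate 1, as H19 was, with 8 and 4 counts in the parent and 10 and 5 in clone 16. Counted by group, Igf2 CPM was higher in replicate 1 in 7 groups and in replicate 2 in 4. The i10 parental line had no Igf2 count in either library, which allows up to 3 counts in each.

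Summed over libraries, Igf2 had 113 counts from 129S1 and 33 from CAST, a share of 77.4% (70.0 to 83.4%). It was 83.7% (70.0 to 91.9%) in the parental lines and 74.8% (65.6 to 82.2%) in the clones. The 129S1 count was the higher in 15 libraries, the CAST count in 1, and they were equal in 8, of which 5 had no Igf2 count. CAST counts were not absent: d3 clone 12 had 21 from 129S1 and 11 from CAST, and i7 clone 12 had 6 and 7. Of 24 libraries 13 held Igf2 counts from both alleles. Pooled intervals treat libraries as one sample and leave out their spread.

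Ascl2, which is needed for the trophoblast lineage, was as scarce as Igf2. Its counts ran from 0 to 21 with a median of 5. The highest libraries were replicate 2 of the i10 clone 18 at 2.37 CPM and replicate 2 of the d3 parental line at 2.16 CPM, where the other replicates had 0.242 and 0.579 CPM. Ascl2 had 98 counts from 129S1 and 38 from CAST, a share of 72.1% (64.0 to 78.9%), with 129S1 higher in 20 libraries and CAST in 2. Pooled by group, 129S1 was higher in 12 of 12 groups, some on few counts. The i7 and i10 parental lines held 4 Ascl2 counts each, and d3 clone 21 had 4 against 3. Igf2 is known as paternally and Ascl2 as maternally expressed, yet both had more counts from the same strain's allele. Neither gene passed the filter of the ratio test. Of the genes that did, 73.1% were called against equality in the parental lines, so a lean to either allele was common. Of the trophoblast markers, Tfap2c stood at 29.2 to 149.7 CPM, Eomes at 0.596 to 13.6 and Cdx2 at 0 to 8.85, while Elf5 was at 0 in 17 libraries and Hand1 in 20. Their part in the Ascl2 level was not tested.

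Kcnq1ot1 was detected in every library and from both alleles in 24 of 24. Replicates 1 and 2 held 76 and 31 counts for the d3 parent, 53 and 35 for its clone 12, 27 and 44 for its clone 21, 30 and 24 for the d6 parent and 83 and 20 for its clone 16. They held 35 and 56 for the i7 parent, 35 and 90 for its clone 7, 32 and 65 for its clone 12, 26 and 17 for the i10 parent and 16 and 61 for its clone 18. The i12 parent held 7 and 71, the widest gap of any group, and its clone 10 held 48 and 16. The 2 libraries of the i12 parental line were thus the lowest and the highest of all, at 1.67 and 18.1 CPM. Elsewhere Kcnq1ot1 lay between 2.21 and 12.1 CPM.

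The 129S1 share of Kcnq1ot1 was 56.8% (53.7 to 59.9%) over all libraries, from 567 counts of 129S1 and 431 of CAST. Per library it ran from 28.6% to 74.3%, with 129S1 higher in 18 libraries, CAST in 5 and equal counts in 1. In 20 of 24 libraries the Wilson interval included 50%. Averaged over the parental lines, the log2 ratio of 129S1 to CAST was 0.31 with a standard error (SE) of 0.17 (edgeR adjusted p = 0.109), which was not called. It ranged from 0.02 without replicate 2 of the i12 parental line to 0.46 without replicate 1 of the d6 parental line, where it was called (edgeR adjusted p = 0.035). Without replicate 2 of the d6 parental line it was 0.19. Counts assigned to Kcnq1ot1, whose promoter is printed above, thus carried the letters of both genomes.

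In the domain of Kcnq1ot1, the genes Cdkn1c, Kcnq1, Phlda2 and Slc22a18 had few counts or none. Cdkn1c had 0 counts in 15 libraries and at most 3 in any, 5 from 129S1 and 8 from CAST in all. Kcnq1 had 0 counts in 22 libraries and at most 3. A count of 0 allows up to 3, so no library put either gene above that limit at this depth. The strand setting of the counting is not given, so reads of Kcnq1 and of Kcnq1ot1 inside it can be told apart only if strand was used. Phlda2 had at most 6 counts in a library, 24 from 129S1 and 12 from CAST in all (66.7%, interval 50.3 to 79.8%). Slc22a18 had at most 9, with 29 and 13 (69.0%, interval 54.0 to 80.9%). Slc22a18 had up to 9 counts in replicate 2 of i7 clone 7 and 5 in replicate 2 of i12 clone 10. The d3 parental line, d3 clone 12 and the i12 parental line had none in either library.

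**Figure D3:**
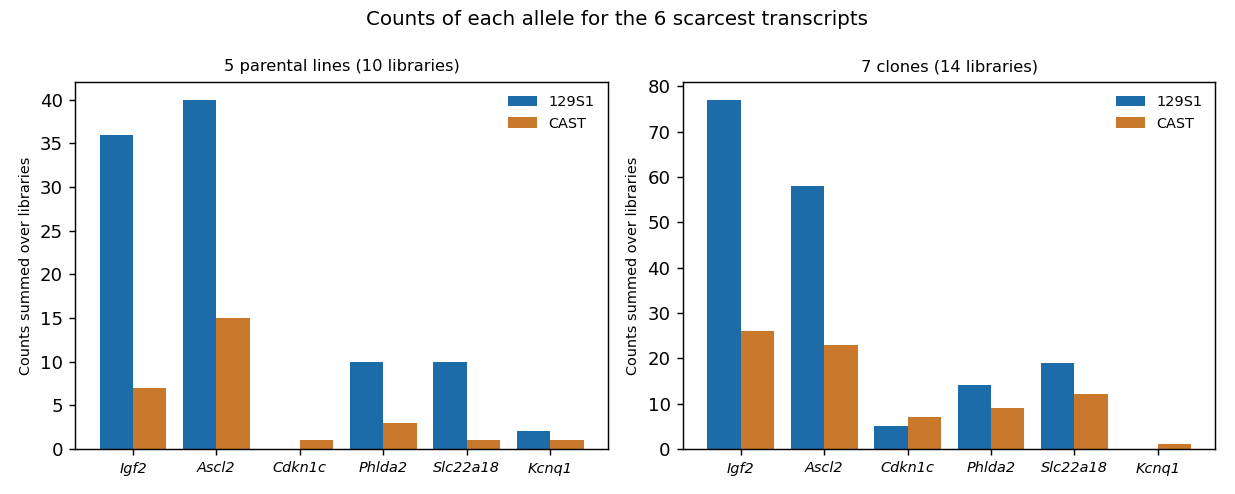
Counts of each allele summed over the 10 parental libraries (left) and the 14 clone libraries (right) for the 6 scarcest genes; bars start at 0. Igf2 and Ascl2 have more 129S1 than CAST counts on both sides, 113 against 33 and 98 against 38 in all, and Cdkn1c and Kcnq1 have almost none.

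Cd81 was the best measured gene of the cluster, with 331 to 1623 counts per library. In d3 it stood at 72.8 and 86.0 CPM in the parental line, 78.9 and 96.4 in clone 12, and 72.2 and 72.2 in clone 21. In i7 it stood at 133.6 and 104.8 CPM in the parental line, 127.5 and 113.5 in clone 7, and 120.4 and 105.8 in clone 12, so that every i7 library was above every d3 library. The d6 parent had 89.7 and 116.0 CPM and its clone 16 had 71.9 and 99.7. The i12 parent had 98.3 and 180.3 CPM and its clone 10 had 86.0 and 158.5. The i10 parent had 66.8 and 163.8 CPM, with a mean of 115.3 ± 68.6 (SD, n = 2), and its clone 18 had a mean of 127.5 ± 67.2. Replicate 2 was higher than replicate 1 in each i12 and i10 group, and parent and clone overlapped there.

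The Cd81 allele share leaned the same way in every library. The 129S1 allele had the higher count in 24 of 24 libraries, 13273 against 7934 counts in all, a share of 62.6% (61.9 to 63.2%). Per library the share ran from 54.1% in replicate 1 of i10 clone 18 to 66.8% in replicate 1 of d6 clone 16 and replicate 2 of the d6 parental line. It was 62.6% in the pooled parental lines and 62.6% in the pooled clones. The parental mean log2 ratio was 0.75 (SE 0.05, edgeR adjusted p = 1.94e-11). Against equality, however, 73.1% of the 12774 genes tested were called, 4751 toward 129S1 and 4590 toward CAST, and 37.9% of genes lay further from equality than Cd81. A called ratio was thus near the background for this table, and the part of read mapping to either genome was not tested.

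Tssc4 had 68 to 564 counts, between 16.2 and 40.0 CPM. Its highest level was in the d3 parental line (31.6 and 40.0 CPM), and its widest replicate gap was in d3 clone 12, at 37.3 and 16.2 CPM. The 129S1 share was 54.2% (53.0 to 55.5%) over all libraries and 129S1 was higher in 20 of 24. Its parental log2 ratio of 0.24 (SE 0.09, edgeR adjusted p = 0.0201) was called, but 69.2% of genes lay further from equality. That call was lost without any 1 of 4 libraries: without replicate 2 of the d6 parental line the adjusted p was 0.057, without replicate 2 of i7 0.0634, without replicate 1 of i12 0.134 and without replicate 2 of i10 0.0686. The antisense neighbour Trpm5 overlaps Tssc4. H19, at -0.14 (SE 0.38, adjusted p = 0.755), was not called, and its sign was not stable. It was 0.78 without replicate 1 of the i12 parental line, which left that line 3 H19 counts. Without replicate 1 of the i10 parental line, which left that line 1 H19 count, it was -1.12. Thus the members called were 2 of the 4 tested.

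No member passed the test in any clone. Against the parental lines, 0 of 42 tests on total counts were called, over 6 members that passed the filter and 7 clones. In this fit, which has no term for replicate number, none had an unadjusted p under 0.05 (edgeR). DESeq2 called none either. Among all 16253 genes the share called was 0.0123% (d3 clone 12), 0.0554% (d3 clone 21), 0.0123% (d6 clone 16), 0.0246% (i7 clone 12) or 0.0% (the other 3 clones), so a count of 0 among 6 members is near the background. The smallest p belonged to Ascl2 in d3 clone 21. Ascl2 had 3 and 4 counts there against 7 and 21 in the parental line. Its log2 change was -2.15 (SE 1.03), with an edgeR adjusted p of 1.0. With a term for replicate number in each recombination (the replicate block), no member was called in a clone. H19 then had 3 tests with an unadjusted p under 0.05, Ascl2 1 and Cd81 1 (edgeR). Over all genes and clones, 0.927% of tests were called with the block.

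The precision differed widely between the genes. Cd81 changes ran from -0.26 to 0.16 on the log2 scale with an SE of 0.40 in each comparison, and Tssc4 changes from -0.46 to 0.26 (SE 0.35 to 0.37). Kcnq1ot1 ran from -0.84 to 0.67 (SE 0.71 to 0.76). Ascl2 ran from -2.15 to 1.53 (SE 0.92 to 1.27). H19 had the widest errors of these 5, with changes from -2.72 to 1.54 (SE 1.21 to 2.32). The lowest came from the 2 and 0 counts of i10 clone 18, where the fitted value depends on the prior count. Igf2, the other member tested, had the single widest error, with changes from -0.17 to 4.06 (SE 0.83 to 3.03). Its highest change was in i10 clone 18, whose parental line had no Igf2 count. These errors come from the fit without a term for replicate number, so they include the shift between replicates. In that fit, with 2 libraries a group, changes of the size of these errors were not detectable. With the replicate block the coefficient of variation of totals was 0.119 in place of 0.246.

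**Figure D4:**
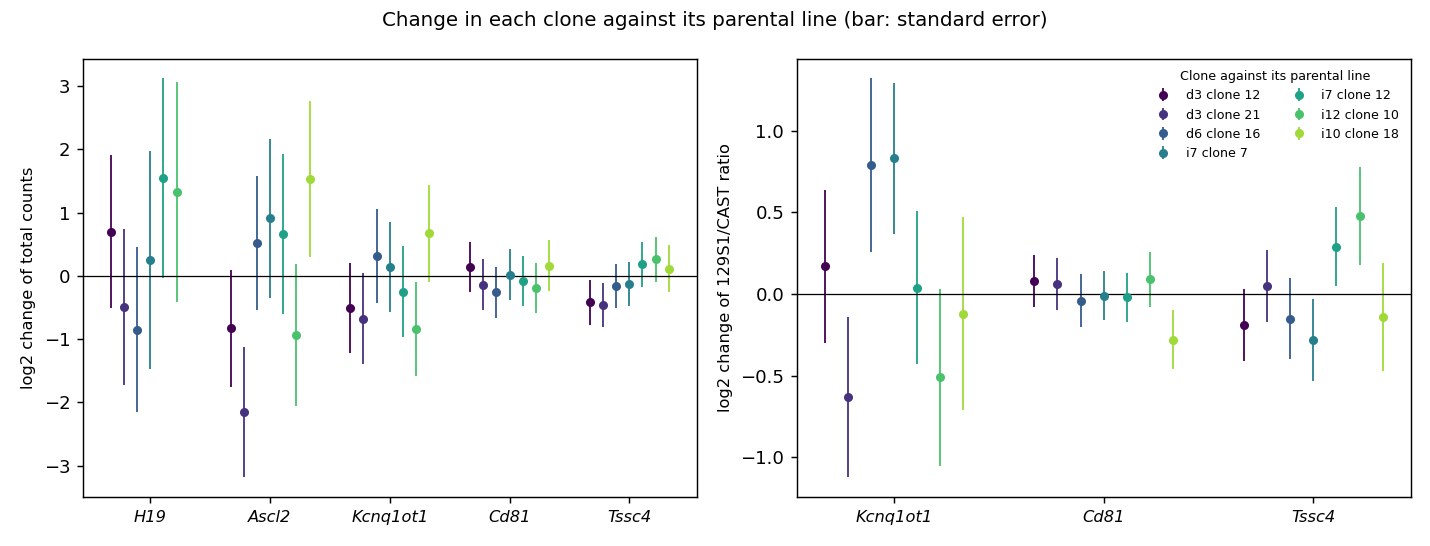
Change in each clone against its parental line on the log2 scale, for total counts (left, 5 genes) and for the ratio of 129S1 to CAST (right, 3 genes); points are fitted changes, lines 1 standard error and colours the clones. H19 in i10 clone 18, with 2 and 0 counts, is not drawn. Igf2 totals and H19 ratios, with errors up to 3.03 and 2.78, are not drawn either. Cd81 lies closest to 0 on both sides, and H19 and Ascl2 carry the widest errors on the left.

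No allelic ratio passed the test in a clone either. None of 28 tests over the 4 members that passed the ratio filter was called, and none had an unadjusted p under 0.05 (edgeR). The share of all 12774 genes called for the ratio reached 3.09% for d3 clone 21 and 1.92% for i7 clone 12. It was 0.0548% for d3 clone 12, 0.047% for d6 clone 16, 0.00783% for i7 clone 7, 0.00783% for i12 clone 10 and 0.0% for i10 clone 18. In d3 clone 21, where chromosome 14 had almost no 129S1 counts, both alleles were counted for Cd81 (129S1 share 62.9% and 63.5%) and for Kcnq1ot1 (55.6% and 43.2%). The Cd81 ratio changed by -0.28 to 0.09 on the log2 scale (SE 0.15 to 0.18). The Kcnq1ot1 ratio changed by -0.63 to 0.83 (SE 0.46 to 0.59), highest in i7 clone 7 (edgeR adjusted p = 1.0).

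Among the 5 parental lines, 0 of 6 members were called for total counts, where 6.64% of all genes were. Igf2 had the smallest p, 0.0421 (edgeR adjusted p = 0.176), and was the only member with an unadjusted p under 0.05. Igf2 passed the filter on low counts only through replicate 2 of the d3 groups, at 1.70 to 1.89 CPM. No other library was above 0.871 CPM for Igf2, so this p is a description only and no support for a difference. Igf2 was thus tested because of the lines where it is high. Its parental means were 1.22 ± 0.900 CPM in d3, 0.731 ± 0.143 in d6, 0.220 ± 0.0607 in i7, 0.255 ± 0.361 in i12 and 0 in i10 (SD, n = 2). H19 had an adjusted p of 0.375 and Cd81 of 0.565. With no filter on low counts, H19 (edgeR adjusted p = 2.35e-07) and Igf2 (0.0179) were called, where 11.9% of genes were. For the ratio, 0 of 4 members were called where 1.1% of all genes were, and H19, named above, had the smallest p of them. A joint test of whether the recombinations' effects differed called 0 of 6 members and 0.0123% of all genes.

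The other genes of these pathways, from lists chosen by name, had no gene called for total counts in any of the 7 clones. The 20 named neighbours on distal chromosome 7 had 9 tested, and their median log2 change ran from -0.26 to -0.03 over the clones, against -0.01 to 0.01 for all genes. Of the neighbours, Ins2, the insulin gene beyond Igf2, was at 0 in all 24 libraries. Regulators of imprinting had 14 of 14 tested, medians -0.05 to 0.15. Zfp57, which guards methylated imprints, stood at 32.3 to 69.9 CPM and Ctcf at 10.9 to 32.6 CPM. For the allelic ratio, 1 of the 14 regulators was called in a clone: Hells, a chromatin remodeller on another chromosome. The log2 ratio of Hells changed by -1.04 (SE 0.11, edgeR adjusted p = 1.3e-05) in i7 clone 12. In that clone 1.92% of all genes were called for the ratio.

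The insulin-like growth factor axis had 12 of 14 genes tested, medians -0.07 to 0.24. The receptor gene Igf1r stood at 14.6 to 34.3 CPM and Igf2r, whose product clears the ligand, at 30.0 to 79.7 CPM, while the ligand Igf1 was at 0 in all 24 libraries. Cell cycle inhibitors had 6 of 6 tested, medians -0.25 to 0.16. Cdkn1a stood at 277.2 to 850.2 CPM and Cdkn1b at 16.0 to 53.2 CPM, in contrast to their relative Cdkn1c, which did not pass 0.256 CPM. Among the parental lines 1 of the 14 regulators of imprinting (Suz12, edgeR adjusted p = 0.0118), 2 of the 12 tested genes of the growth factor axis (Igf2bp2, 0.0248, and Igf2bp3, 0.0204) and 1 of the 6 cell cycle inhibitors (Cdkn2a, 0.0121) were called for total counts, where 6.64% of all genes were.

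Of the neighbours, Tnfrsf22 had the largest ratio, at a log2 ratio of 10.31 (SE 0.28) toward 129S1 in the parental lines. Mrpl23, beside H19, had 1.56 (SE 0.09), and Dhcr7 -0.34 (SE 0.04), so ratios in both directions stood along this chromosome end. Over all genes the central 90% of ratios ran from -6.04 to 3.91. By Pearson correlation of log2 CPM over the 12 group means, the genes most like Cd81 were Tmem147os (0.97), Mfsd6 and Fah (0.96 each), and those most like Tssc4 were Cdk4 (0.96), Map2k2 (0.91) and Ppp1r16a (0.90). Over the 24 libraries, chosen after its values were seen, H19 was most like Gm16096 (0.90) and Zfand2a (0.89). The points share library and replicate, and the correlations are descriptions only.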

How the data were processed

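RNA-seq counts of 24 libraries were used as deposited: raw counts per gene in 2 columns a library, headed 129S1 and CAST. Per the submitters' processing notes, STAR, SAMtools and mm10 were used; versions, the counting program, annotation, strand setting and treatment of reads without an informative variant are not given in the sources used here. Gene names and positions came from GENCODE M21 (48838 identifiers matched). Total counts are sums of both columns. The members and lists were chosen with earlier results of these data known.

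Totals were tested with edgeR 4.0.16 in R 4.3.3 (TMM, filterByExpr, quasi-likelihood test, 1 coefficient per group, 16253 genes). The ratio fit had 1 term for every library and 1 allele term for every group, over the 12774 genes whose mean summed over alleles was 20 counts or more. Calls had a Benjamini-Hochberg adjusted p under 0.05. Genes named were the members, those of the lists that passed a test or define a list, and the 3 most correlated genes of Cd81 and Tssc4. On simulated counts for d3 clone 12, 5.5% of 2-fold (16033 genes) and 86.5% of 4-fold (16027 genes) changes were called. For the ratio these were 63.5% (12728 genes) and 93% (12740 genes). Every simulated gene had the same coefficient of variation, 0.25 for totals and 0.084 for the ratio. These shares therefore do not carry over to members that vary more, such as H19 (SE of totals 1.21 to 2.32). Alternatives were DESeq2 1.42.0, other normalisation and filters, single alleles, a replicate block and leaving out each library. No 2 libraries were copies (lowest chi-square per degree of freedom 2.66). The 3 lowest pairs, at 2.66, 2.84 and 3.2, each joined replicate 1 of different groups. The 2 replicates of a group differed more, at 10.64 to 60.74. Whether replicate number marks a batch was not tested. Wilson intervals (95%) and the floor of 3 counts cover counting error only.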

Additional observations from a re-analysis of the deposited data

How the results depend on the processing

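For clones against parental lines, 0 members were called for totals or ratios under every alternative run, including 1169 and 672 tests that each left out 1 library (lowest adjusted p 0.177 and 0.715), and for differing recombination effects 0. For differences among parental lines in total counts the 0 members called became 2 with no filter on low counts (H19, adjusted p 2.35e-07, and Igf2, 0.0179) and 3 with the replicate block (H19, 0.00274; Igf2, 0.0151; Cd81, 0.00105), settings in which 11.9% and 50% of all genes were called; the cause was not tested. For the parental ratio against equality, the 2 members called became 1 with TMM per allele column (Tssc4 at 0.20, adjusted p 0.0531) and 1 to 3 when 1 library was left out (Tssc4 lost, or Kcnq1ot1 gained). With a filter of 5 counts, added after seeing the data, it was 3 of 6, Ascl2 joining at 2.06 (adjusted p 0.00765), where 68.3% of all genes were called; Igf2, with no count in the i10 parental line, had no usable error there (adjusted p 1.0).

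The labels do not say whether equal replicate numbers were paired. Replicate differences correlated at 0.36 to 0.68 over genes within a recombination and at -0.19 to 0.64 between recombinations. The replicate block left 7 residual degrees of freedom in place of 12, and lowered the coefficient of variation of totals from 0.246 to 0.119. It called 0 members in the clones (lowest adjusted p 0.108, H19). Averaging shares per library in place of pooling counts moved H19 shares where a library held few counts, for example from 57.1% to 30.8% in the i10 parental line. Depth limits Cdkn1c, Kcnq1, Phlda2 and Slc22a18, which were at or under 3 counts in 20 to 24 libraries.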
